A study of Rattus norvegicus with 6 samples.

Results

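The genes described here encode enzymes of the pentose phosphate pathway and other enzymes that supply NADPH in the cytosol. They were chosen by name as 6 genes, Pgd, Taldo1, Tkt, Me1, Idh1 and Nadk, and every non-control array probe whose RefSeq accession belongs to one of them was taken. Of these genes, 5 had such a probe, with 8 probes in all among 61537 non-control probes, and no probe matched Pgd, the gene of 6-phosphogluconate dehydrogenase, which is not analysed here. All 8 probes were well above background on all 6 arrays. The treated group held 3 male Sprague-Dawley (Crl:CD(SD)) rats given 4-hydroxy-m-phenylenediammonium dichloride, an aromatic diamine salt that oxidises readily, at 100 mg/kg/day for 4 weeks. The control group held 3 male rats of the same strain given corn oil for 4 weeks. Rats in both groups were bought at 5 weeks of age and kept on a basal diet, and the labels do not name the vehicle of the compound. Total RNA of the renal cortex of each animal was hybridised to 1 Cy3 array, and the comparison asks which transcripts differ in the cortex under the compound.

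The oxidative arm of the pentose phosphate pathway turns glucose 6-phosphate into ribulose 5-phosphate and yields NADPH. The non-oxidative arm, which includes transketolase and transaldolase, returns surplus pentose to glycolysis. Malic enzyme 1 and isocitrate dehydrogenase 1 make NADPH in the cytosol from malate and isocitrate, and NAD kinase makes the NADP that all of them reduce. In tubule cells NADPH drives the reduction of glutathione and thioredoxin and the quinone and carbonyl reductases. Transketolase, transaldolase and malic enzyme 1 are known targets of NRF2, which switches on antioxidant genes when electrophiles or oxidants disable its inhibitor KEAP1.

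A level here is the log2 intensity of a probe minus the 75th percentile of its array. Levels compare animals within 1 probe and not one probe with another. Between 63.1% and 69.6% of probes were well above background, and all treated arrays lay on one slide and all control arrays on another, scanned separately, so a slide difference and a treatment difference cannot be told apart below. After the same scaling, 7 spike-in probes had a median log2 difference of -0.13 (treated minus control, range -0.19 to -0.065), and the median over the 12130 genes tested was -0.03. All 11 proximal tubule markers were well above background on every array, with a summed linear level of 1707 to 1770 in treated and 1771 to 1939 in control animals. Among them Anpep and Aqp1, a brush border peptidase and a water channel, were called lower (0.64-fold and 0.67-fold, limma adjusted p = 0.030 and 0.034), and the other 9 did not pass. In bulk tissue, fewer cells of a type and less RNA per cell cannot be told apart. With limma over all genes, 370 genes (3.05%) were higher and 161 (1.33%) lower at a Benjamini-Hochberg adjusted p under 0.05. The share of higher genes among the calls was 69.7%, and 47.2% when the background was corrected with normexp.

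Mean levels were slightly higher in treated than in control cortex for the members of the non-oxidative arm, Taldo1 (1.16-fold) and Tkt (1.24-fold). They were also slightly higher for Me1 (1.27-fold at its brightest probe). The log2 differences of Tkt and Me1 were smaller than the range of their treated animals. Idh1 (0.889-fold) and Nadk (0.976-fold) differed by less than their pooled SD within groups. With limma over all genes, 0 of the 5 genes were called in either direction, beside 4.38% of all genes tested. At an unadjusted p under 0.05, Taldo1 and Tkt were higher and none was lower, beside 11.8% of all genes tested that were higher by that rule. Taldo1 and Tkt were also the members whose treated values all lay above the control values, which was so for 14.1% of all genes tested. The median log2 fold change of the 5 genes was 0.22, against -0.03 over all genes tested. By the size of its log2 fold change, Me1 was exceeded by 10.6% of genes tested, Tkt by 11.95% and Taldo1 by 16.8%. Of the 8 probes, several of which share a gene, 0 were called over all probes (4.98% of probes tested were called higher and 6.72% in either direction). At an unadjusted p under 0.05, 4 were higher (13.9% of probes tested), and 3 had treated values above all control values (16.6% of probes tested).

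**Figure D1:**
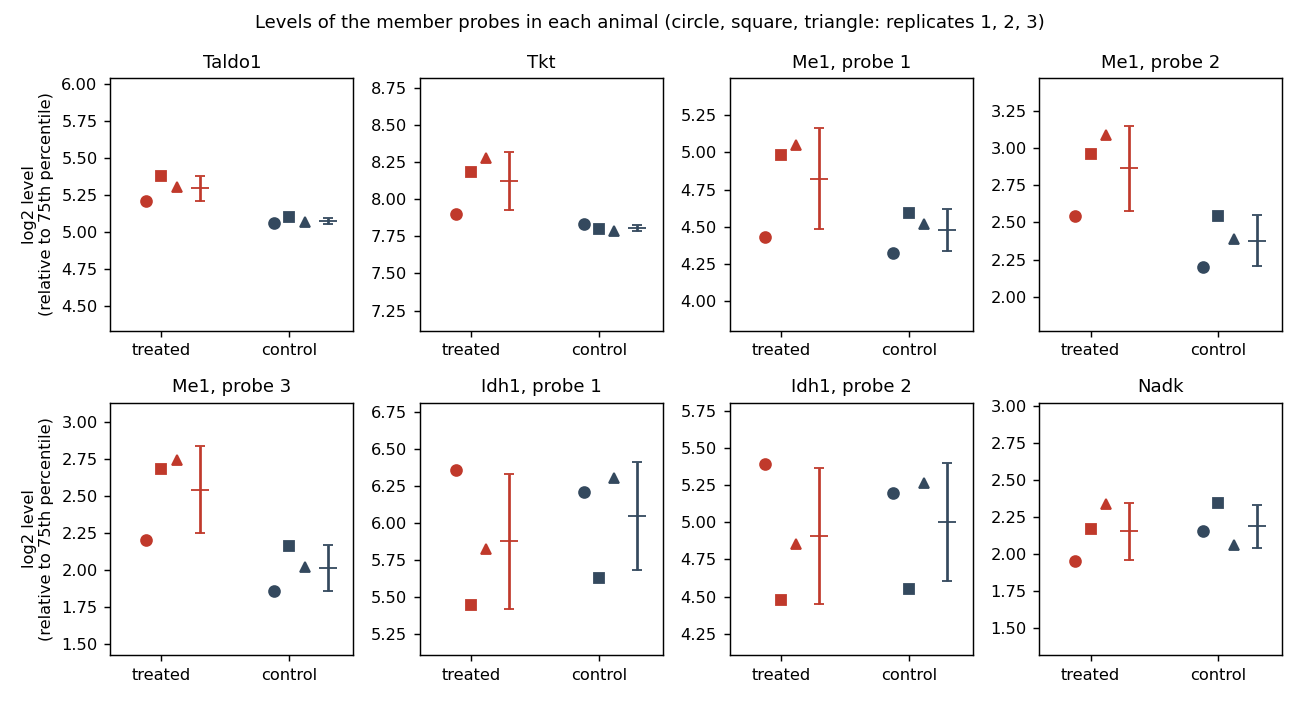
Log2 level of each of the 8 member probes in the 3 treated animals (red, left) and the 3 control animals (dark, right), with the mean and SD of each group as a bar beside the points; all panels span the same number of log2 units. Treated and control points separate for Taldo1, Tkt and Me1 probe 3, and overlap for the others.

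The stretch upstream of the start site is shown for 4 genes, because 3 of them (Taldo1, Tkt and Me1) had higher means together and Idh1 did not. Each run gives the 250 bases before the gene's start, 5′ to 3′ on the gene's own strand, from RefSeq's annotation of GRCr8, and capitals mark matches to TGACNNNGC, the core of the antioxidant response element bound by NRF2, or to TGANTCA, the AP-1 site, both searched on both strands. The windows are chr8:96540245-96540494 (minus strand) for Me1, chr9:74049475-74049724 (minus strand) for Idh1, chr1:205922946-205923195 (plus strand) for Taldo1 and chr16:5729982-5730231 (plus strand) for Tkt.
Me1: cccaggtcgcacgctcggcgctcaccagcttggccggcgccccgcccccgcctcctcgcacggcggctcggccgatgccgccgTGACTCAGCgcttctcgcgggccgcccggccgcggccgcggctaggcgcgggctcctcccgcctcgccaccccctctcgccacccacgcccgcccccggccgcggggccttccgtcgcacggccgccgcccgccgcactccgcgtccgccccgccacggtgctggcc
Idh1: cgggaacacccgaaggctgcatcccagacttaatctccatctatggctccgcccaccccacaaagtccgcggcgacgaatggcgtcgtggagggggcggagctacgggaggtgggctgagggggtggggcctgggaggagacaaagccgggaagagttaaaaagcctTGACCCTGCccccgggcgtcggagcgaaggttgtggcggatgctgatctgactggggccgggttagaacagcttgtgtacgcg
Taldo1: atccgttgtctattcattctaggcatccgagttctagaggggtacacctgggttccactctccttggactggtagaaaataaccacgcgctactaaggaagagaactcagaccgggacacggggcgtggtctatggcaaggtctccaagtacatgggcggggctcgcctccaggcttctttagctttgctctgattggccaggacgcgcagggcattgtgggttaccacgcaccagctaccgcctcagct
Tkt: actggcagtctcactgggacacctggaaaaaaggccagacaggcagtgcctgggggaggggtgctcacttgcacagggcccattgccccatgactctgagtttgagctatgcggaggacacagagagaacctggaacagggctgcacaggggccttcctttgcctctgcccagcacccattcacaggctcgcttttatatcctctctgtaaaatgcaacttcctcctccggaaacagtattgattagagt
The Me1 window held 1 antioxidant response element core, TGACTCAGC, from 167 to 159 bases before the start, and its first 7 letters are also an AP-1 match. Idh1 had 1 core match, TGACCCTGC, from 83 to 75 bases before the start, and no AP-1 match. Neither motif was found in the Taldo1, Tkt or Pgd windows. A CCAAT box, searched in the same way, was found on the reverse strand from 57 to 53 bases before the Taldo1 start and from 31 to 27 bases before the Pgd start. None was found in the Me1, Idh1 or Tkt windows, and 34% of the windows of all genes held one. Of 33469 rat windows of the same length, 10.1% held the core and 6.34% the AP-1 site. A letter match is a description, and windows without one say nothing of sites elsewhere.

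Taldo1 encodes transaldolase, which moves a dihydroxyacetone unit between sugar phosphates. Its level was 5.21, 5.38 and 5.30 in the treated animals, against 5.06, 5.10 and 5.07 in the control animals. Every treated value lay above every control value, by at least 0.11, and the control animals lay within 0.039 of each other. Means were 5.29 ± 0.09 in treated and 5.07 ± 0.02 in control cortex (SD, n = 3 each), a log2 fold change of 0.22 (SE 0.06, 95% interval 0.06 to 0.38, limma adjusted p = 0.110). When the variance prior followed intensity, the Taldo1 probe passed in the fit over all probes (adjusted p = 0.049). In an exact two-sided permutation test of this 1 value p was 0.1, the smallest that 3 against 3 animals allow.

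Tkt encodes transketolase, the thiamine-dependent partner of transaldolase. Tkt stood at 7.90, 8.18 and 8.28 in treated animals and at 7.83, 7.80 and 7.79 in control animals. Treated animals 2 and 3 were well above the controls, while treated animal 1 exceeded the highest control by 0.072. The means of 8.12 ± 0.20 and 7.81 ± 0.02 (treated and control, SD, n = 3 each) gave a log2 fold change of 0.32 (SE 0.11, 95% interval 0.05 to 0.58, adjusted p = 0.144). When 1 array was left out, the log2 fold change of Tkt was between 0.24 (without treated animal 3, limma adjusted p = 0.264) and 0.43 (without treated animal 1, adjusted p = 0.081), and the highest adjusted p was 0.300, without treated animal 2.

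Me1 encodes the cytosolic malic enzyme, which oxidises malate to pyruvate and is also a lipogenic enzyme in liver and fat. At its brightest probe the levels were 4.43, 4.98 and 5.05 in treated animals, against 4.32, 4.59 and 4.52 in control animals. Treated animal 1 lay within the control range and the other treated animals above it. The group means were 4.82 ± 0.34 and 4.48 ± 0.14 (treated and control, SD, n = 3 each), with a log2 fold change of 0.35 (SE 0.18, 95% interval -0.11 to 0.80, limma adjusted p = 0.305).

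Me1 probe 2 read 2.54, 2.96 and 3.09 in treated and 2.20, 2.55 and 2.39 in control animals, and probe 3 read 2.20, 2.68 and 2.74 in treated and 1.86, 2.16 and 2.02 in control animals. These probes gave larger folds, 1.40 and 1.44, with log2 fold changes of 0.49 (SE 0.17) and 0.53 (SE 0.17), and neither passed limma over all 40981 probes tested (adjusted p = 0.143 and 0.121). On all 3 probes treated animal 1 was the lowest treated animal and control animal 1 the lowest control animal. Without treated animal 1 the brightest probe's log2 fold change was 0.54 (adjusted p = 0.097), without treated animal 3 it was 0.23 (adjusted p = 0.531), and with a normexp background 0.22 (adjusted p = 0.445).

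**Figure D2:**
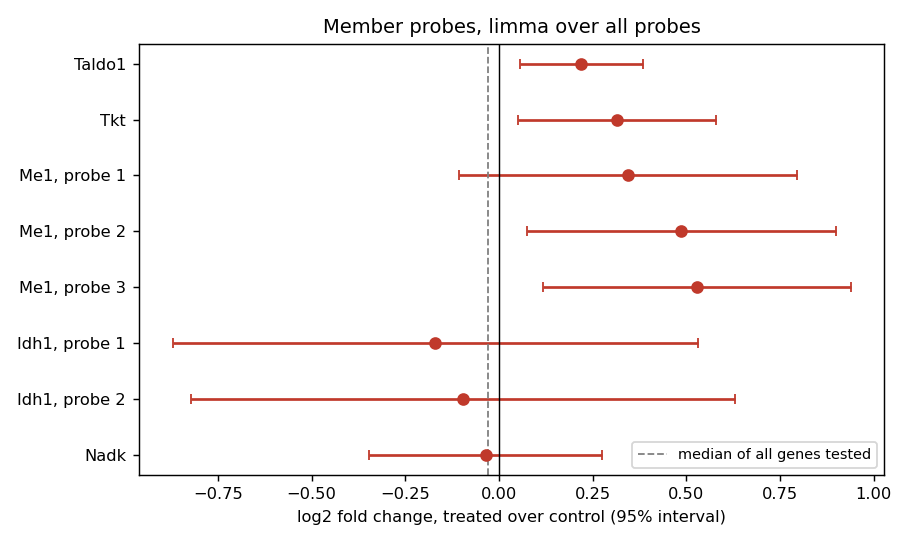
Log2 fold change (treated over control) of each member probe with its 95% interval from limma over all probes; the dashed line is the median of all genes tested, -0.03. The intervals of Taldo1, Tkt and Me1 probes 2 and 3 lie above 0, and the other 4 cross it.

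Idh1 encodes the cytosolic and peroxisomal NADP-dependent isocitrate dehydrogenase. It varied most among the members. Its brighter probe had levels of 6.35, 5.44 and 5.83 in treated animals and 6.21, 5.63 and 6.30 in control animals. The groups overlapped over nearly their whole range, with treated animal 2 and control animal 2 lowest. Means were 5.87 ± 0.46 and 6.04 ± 0.37 (treated and control, SD, n = 3 each), and the log2 fold change of -0.17 (SE 0.29, 95% interval -0.88 to 0.54) did not pass (limma adjusted p = 0.748). The second probe gave 5.39, 4.48 and 4.85 in treated and 5.20, 4.55 and 5.27 in control animals, which is the same order of the 6 animals, with a log2 fold change of -0.096 (SE 0.29). The pooled SD within groups was 0.41, larger than for all but 7.85% of genes tested, against 0.062 for Taldo1, which 80.9% of genes exceeded. Without treated animal 2 the log2 fold change was 0.046, and without treated animal 1 it was the lowest of the fits that left out 1 array, -0.41.

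Nadk, which encodes the cytosolic NAD kinase, had levels of 1.96, 2.17 and 2.34 in treated animals and 2.16, 2.35 and 2.06 in control animals. Each group spanned most of the other's range. The means were 2.15 ± 0.19 and 2.19 ± 0.14 (treated and control, SD, n = 3 each), with a log2 fold change of -0.04 (SE 0.13, 95% interval -0.34 to 0.27, limma adjusted p = 0.891). Its sign turned with a normexp background (0.063) and without treated animal 1 (0.064) or control animal 2 (0.044).

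The members did not follow one order over the animals. Relative to the control mean, treated animal 1 was at 0.13 for Taldo1, 0.097 for Tkt, -0.045 for Me1, 0.31 for Idh1 and -0.23 for Nadk. Treated animal 2 was at 0.30 for Taldo1, 0.38 for Tkt and 0.50 for Me1, but at -0.60 for Idh1 and -0.02 for Nadk. In treated animal 3 the deviations were 0.22 for Taldo1, 0.47 for Tkt, 0.58 for Me1, -0.22 for Idh1 and 0.15 for Nadk. Treated animal 1 was thus the lowest of its group for Taldo1, Tkt, Me1 and Nadk and the highest for Idh1. The treated animals spread more widely than the controls for all 5 genes, with ranges of 0.17 against 0.039 for Taldo1, 0.38 against 0.044 for Tkt, 0.62 against 0.27 for Me1, 0.91 against 0.68 for Idh1 and 0.38 against 0.28 for Nadk, and this spread was not tested.

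**Figure D3:**
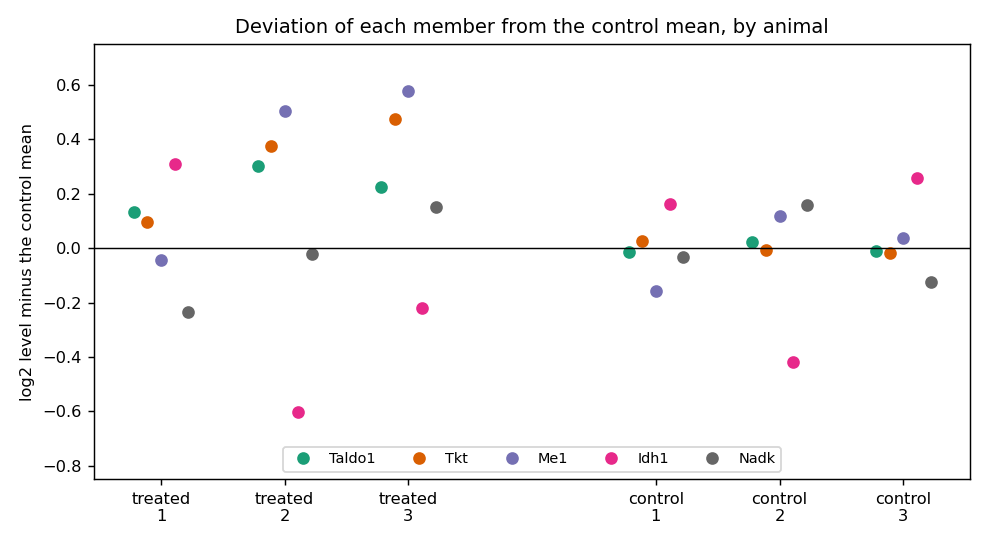
Log2 level of each member gene minus its control mean, for each treated animal (left) and each control animal (right); points are single animals and colours are genes. Taldo1, Tkt and Me1 sit highest in treated animals 2 and 3, and Idh1 sits lowest in treated animal 2, at -0.60, and control animal 2, at -0.42.

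The genes with a profile most like each member over the 6 arrays were found by Pearson's r of log2 level, as a description over 6 arrays that fall into 2 groups. For Tkt they were Aldoart2, a retrotransposed copy of the aldolase A gene that may share signal with it (r = 0.996), and the beta globin gene Hbb-bs (r = 0.996). Hbb-bs read 6.13, 7.498 and 7.80 in treated and 5.86, 5.47 and 5.55 in control animals. For Taldo1 they were Ugp2, which makes UDP-glucose (r = 0.994), and the kinase gene Map2k4 (r = 0.992). Other Map2k4 probes went the other way between the groups (log2 fold changes -0.065 and -0.21, against 0.096 at the probe used). Ugp2 had levels of 3.78, 4.10 and 3.93 in treated animals, against 3.50, 3.50 and 3.49 in control animals, and narrowly missed the threshold (log2 fold change 0.44, limma adjusted p = 0.058). Me1 was most like Cebpz (r = 0.994) and Rbm38 (r = 0.979), Idh1 most like Scx (r = 0.998) and Mrpl30 (r = 0.985), and Nadk most like Calr (r = 0.999) and Akt1s1 (r = 0.997).

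Red cell markers moved between the groups in the same direction as Tkt. Of 10 tested, 2 were called higher and 0 lower, and all 10 had a higher mean in treated animals. One was Gata1, an erythroid transcription factor that no control array measured well above background. It entered the test only through the treated arrays, and its fold is a lower bound of 1.098. The limma adjusted p of 0.039 for Gata1 came from the values as measured and does not belong to that bound. The marker calls of Anpep, Aqp1 and Gata1 held in no fit that left out 1 array (limma adjusted p from 0.057 to 0.122). The summed linear level of the list was 887.1, 1400 and 1498 in treated animals and 762.3, 583.5 and 609.5 in control animals, with treated animal 1 the lowest treated animal, as for Tkt. Its part in the Tkt and Taldo1 differences was not tested. Adipocyte markers were considered because fat is rich in malic enzyme. Their summed level was 1.62 to 1.72 in treated and 1.67 to 2.20 in control animals over 5 genes tested, all with a lower mean in treated animals and none called by limma (1 at an unadjusted p under 0.05). Lipe and Cidec, a lipase and a lipid droplet gene, differed by -0.35 and -0.38 on the log2 scale (limma adjusted p = 0.151 and 0.726). None of the leukocyte (11 tested), podocyte and endothelial (10 tested) or distal nephron markers (11 tested) was called by limma, with 3, 1 and 2 members at an unadjusted p under 0.05. Among the members with the smallest p in these lists, log2 fold changes were 2.41 for Cd52 and -0.66 for Itgam (leukocyte), 0.24 for Synpo (podocyte), and -0.54 for Scnn1b and -0.49 for Calb1 (distal nephron).

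Among the other genes of the pentose phosphate pathway and its ribose branch, 0 of 13 tested were called in either direction by limma, and at an unadjusted p under 0.05 there was 1, which was lower (13.2% of all genes tested were lower by that rule). Their median log2 fold change was -0.03, the same to 2 decimals as over all genes tested. The smallest p belonged to Shpk, the sedoheptulose kinase gene, with levels of 2.16, 2.23 and 2.22 in treated and 2.31, 2.61 and 2.39 in control animals (log2 fold change -0.23, SE 0.09, limma adjusted p = 0.185). Another Shpk probe gave -0.0040, and the gene's value was -0.12 with the mean of both probes, -0.09 with a normexp background and -0.15 without control animal 2. Prpsap1, which encodes a protein associated with phosphoribosyl pyrophosphate synthetase, differed by -0.23 on the log2 scale (SE 0.09, limma adjusted p = 0.206). At the probe used for each of these genes, the treated animals all lay below the controls, as did 18.7% of all genes tested.

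Of 10 other NADPH-producing enzymes tested, 3 were called higher, 0 lower and 7 did not pass. All 3 work on folate-bound carbon, as do Mthfd1l, Mthfd2l and Mthfd1, which did not pass. Log2 fold changes of Mthfd1l, Mthfd2l and Mthfd1 were -0.56, -0.13 and -0.0034 (limma adjusted p = 0.116, 0.665 and 0.984). At an unadjusted p under 0.05, 3 of the 10 were higher and 2 lower, Mthfd1l among the lower (11.8% and 13.2% of all genes tested). Aldh1l1, the cytosolic formyltetrahydrofolate dehydrogenase, stood at 5.01, 5.24 and 5.22 in treated animals, against 4.50, 4.47 and 4.32 in control animals. It was 1.65-fold higher, with means of 5.16 ± 0.13 and 4.43 ± 0.10 (treated and control, SD, n = 3 each; log2 fold change 0.73, SE 0.09, limma adjusted p = 0.027), and its log2 fold change exceeded that of each of the 8 member probes, a difference that was not tested. Mthfd2, a mitochondrial methylenetetrahydrofolate dehydrogenase that can use NAD or NADP, read -1.59, -1.36 and -1.62 in treated and -2.02, -2.03 and -2.16 in control animals. It was 1.46-fold higher (adjusted p = 0.039), and 4 further probes of the gene ranged from 0.24 to 0.88 in log2 fold change. Aldh1l2, the mitochondrial form of formyltetrahydrofolate dehydrogenase, was 1.66-fold higher at its brighter probe (log2 fold change 0.73, adjusted p = 0.021), but the dimmer probe gave a log2 fold change of -1.11 and the mean of both -0.19. The list's median was 0.04. None of the 3 calls held in any fit that left out 1 array, with limma adjusted p from 0.051 to 0.108, while their log2 fold changes stayed between 0.46 and 0.80.

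Enzymes that spend NADPH included the called genes with the largest differences in these lists. Of 18 reductases tested, 2 were called higher, 1 lower and 15 did not pass, with a median log2 fold change of 0.06. Nqo1, a quinone reductase, had levels of -0.99, -0.06 and 0.49 in treated and -2.93, -2.58 and -3.21 in control animals (6.58-fold, adjusted p = 0.031). Akr7a3, an aldehyde reductase, read 7.68, 7.996 and 8.11 in treated and 6.57, 7.05 and 6.77 in control animals (2.19-fold, adjusted p = 0.031). As for Tkt and Me1, treated animal 1 was the lowest treated animal for both and treated animal 3 the highest. When 1 array was left out, the Akr7a3 call was lost in every fit (limma adjusted p from 0.062 to 0.106), and the Nqo1 call was kept only without treated animal 1 (0.045) and otherwise lost (0.079 to 0.105).

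Of 14 genes of NAD and NADP supply, 0 were called by limma, and at an unadjusted p under 0.05 there were 2 higher and 3 lower. Naprt, a nicotinate phosphoribosyltransferase, differed by -0.32 on the log2 scale (SE 0.08, limma adjusted p = 0.073), with every treated animal below every control, and Nnmt, which methylates nicotinamide, one of -0.29 (adjusted p = 0.119). Of 31 glycolysis and gluconeogenesis genes, 1 was called higher and 0 lower, with a median of -0.015.

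Among 11 genes of fatty acid synthesis, which share Me1 as a source of NADPH, 0 were called by limma in either direction and 0 had an unadjusted p under 0.05. Thrsp and Acaca, a lipogenic regulator and acetyl-CoA carboxylase, differed by 0.44 (SE 0.19) and 0.31 (SE 0.16) on the log2 scale, with limma adjusted p of 0.231 and 0.298. The other Acaca probe gave 0.010, and with a normexp background Thrsp was at 0.20 and Acaca at 0.19. In fits that left out 1 array, Acaca ran from 0.17 (without control animal 2) to 0.46 (without control animal 1), and Thrsp from 0.25 (without control animal 3) to 0.62 (without control animal 2). Of 13 malate, citrate and isocitrate shuttle enzymes, 0 were called by limma, and at an unadjusted p under 0.05 there was 1 in each direction. They were the dicarboxylate carrier Slc25a10 (log2 fold change 0.27, adjusted p = 0.133) and the mitochondrial aspartate aminotransferase Got2 (-0.18, adjusted p = 0.138).

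**Figure D4:**
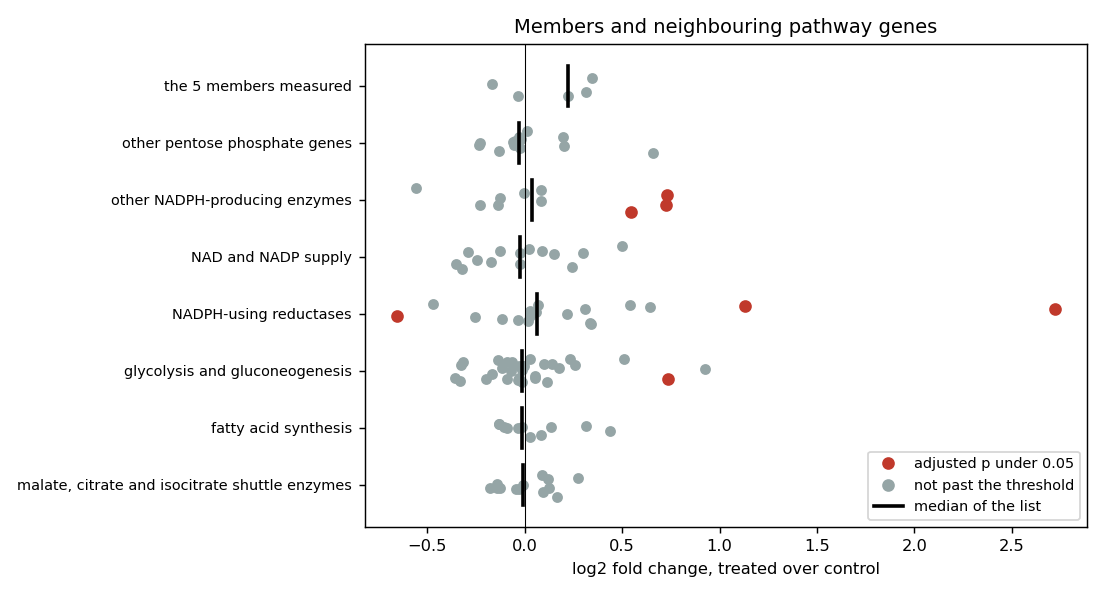
Log2 fold change (treated over control) of each gene tested in the member group and in 7 lists of neighbouring pathway genes; red points passed an adjusted p of 0.05, grey points did not, and black bars are list medians. No member passed, and Nqo1 is the red point farthest to the right, at 2.72.

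**Figure D5:**
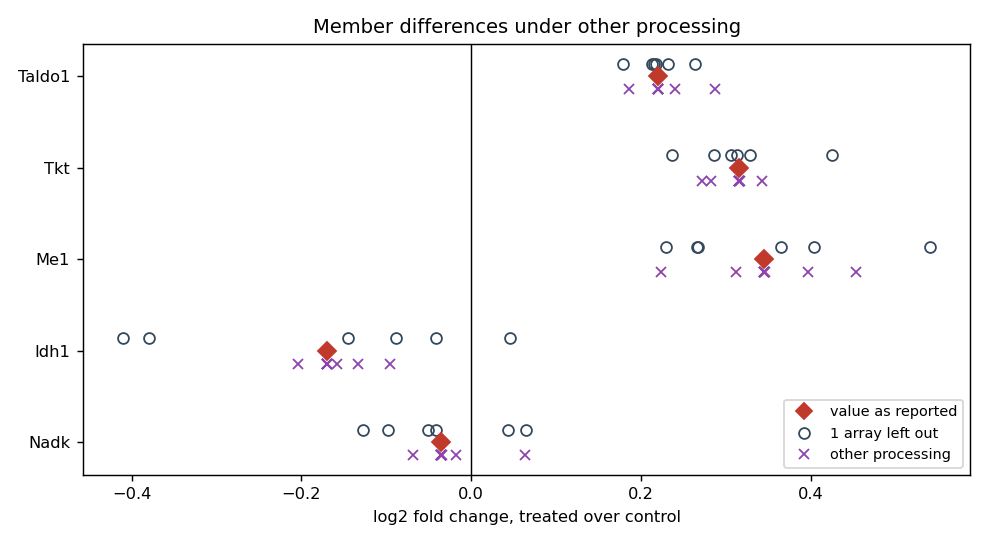
Log2 fold change (treated over control) of the 5 member genes as reported (diamonds), with 1 array left out (open circles) and under 9 other settings (crosses). Taldo1, Tkt and Me1 stayed above 0 in all 15 alternatives, and Idh1 and Nadk crossed 0. Some of the other settings, such as the filters and the replicate block, leave the fold change as it was.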

How the data were processed

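RNA of the renal cortex of 6 rats was measured on 1-colour Agilent arrays, 1 per animal. Per the file headers, the deposited intensity is a background-subtracted, detrended Cy3 signal from Feature Extraction (version 10.7.1.1; the submitters' processing notes say 10.7), on a design tied to rn4. The values deposited as a table are a linear ratio, which in each column equalled the signal over the array's 75th percentile (median ratio 0.998 at values of 1 or more, column medians 0.110, 0.108 and 0.108 for treated and 0.105, 0.105 and 0.109 for control arrays). No label describes that scaling.

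Groups came from the labels. Levels are log2 intensity minus each array's 75th percentile. Accessions without versions were matched to RefSeq genes of GRCr8, which named 28206 probes of 15645 genes. A probe was kept where all arrays of either group had it well above background, the brightest probe stood for a gene, and 12130 genes and, separately, 40981 probes were tested with limma 3.58.1 (R 4.3.3; Benjamini-Hochberg, threshold 0.05). Outlier spots (1 to 3 per array) were left out, no non-control spot was saturated, no arrays were identical, and the test was tried on simulated data. Where no array of a group measured a gene above background, the fold is a lower bound, computed after raising each dim value to the lowest signal well above background on its array. The number of arrays limits precision.

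The members and lists were chosen with earlier results of these data known. Named are all members, for each list the called genes, at most 4 by size of change, or else the 2 smallest p, and the 2 genes most like each member. Alternatives were a normexp background (offset 50, on median signals), quantile and median scaling, other filters, the deposited table, a replicate block, a variance trend, probe means and leaving out each array. Values of some genes the rule picked are not reported here. A slide or scan block could not be fitted, since each slide held 1 group.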

Additional observations from a re-analysis of the deposited data

How the results depend on the processing

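The direction of Taldo1, Tkt and Me1 was the same in all 15 alternatives, and no member passed the threshold in any fit over genes. Not all 15 could change that direction. The other filters, the replicate block and the variance trend left their log2 fold changes unchanged, as did probe means for Taldo1 and Tkt. The deposited table uses the same scaling as the levels here. Over the 15, log2 fold changes ran from 0.18 to 0.29 for Taldo1, 0.24 to 0.43 for Tkt and 0.22 to 0.54 for Me1. The direction of Idh1 and Nadk was not stable. The log2 fold change of Idh1 ran from -0.41 to 0.046 when 1 array was left out (positive without treated replicate 2), and its second probe from -0.34 to 0.12. Nadk ran from -0.13 to 0.064 (positive without treated replicate 1 or control replicate 2), and was 0.063 with a normexp background. Fitted over all probes, 1 member probe, that of Taldo1, was called higher when the variance prior followed intensity. Averaging all probes of a gene took Aldh1l2 to -0.19, and leaving out 1 array took Cidec from -0.85 to 0.15.

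Of all genes tested, 370 were called higher and 161 lower. Calls numbered 37 and 7 with no filter on dim probes, 229 and 63 with the mean of a gene's probes, and 0 to 45 and 0 to 3 when 1 array was left out, when 2455 to 2665 genes had a p under 0.05 before adjustment. There were 513 lower with a normexp background and 395 with the variance trend. Over the 7 pathway lists, 6 genes were called higher and 1 lower as reported. There were 0 higher and 0 lower with no filter on dim probes, 0 to 1 higher and 0 to 0 lower when 1 array was left out, 5 lower with a normexp background and 2 lower with the variance trend.

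The replicate number as a block called 0 genes higher and 0 lower (2547 with p under 0.05 before adjustment), in the pathway lists too. Same-numbered arrays had correlated deviations of -0.12, -0.11 and 0.089, so the numbers were not taken to pair animals. With the replicate block the adjusted p was 0.205 for Taldo1, 0.235 for Tkt and 0.214 for Me1.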
